A study of Mus musculus with 8 samples.

Results

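Mouse mitochondrial DNA (mtDNA) carries 37 genes, which were picked out of an RNA-seq table of 55414 genes by the prefix mt- of their symbols. They comprise 13 protein genes, 2 rRNA genes and 22 tRNA genes, and the 3 classes were kept apart. The RNA came from 8 libraries of B16F10, a melanoma line derived from C57BL/6 mice, in 4 groups of 2 libraries. WT cells and CypD KO cells were kept at 21% oxygen, whereas Control cells and cells labelled CypD OE were kept at 1% oxygen, each for 24 h. In CypD KO cells the gene *Ppif*, which encodes the mitochondrial matrix protein cyclophilin D (CypD), was targeted with CRISPR/Cas9 under puromycin selection. Control cells were transfected with pcDNA alone, CypD OE cells with pcDNA holding CypD, both as stable lines selected with G418, and how many clones a group stands for is not given in the sources used here. CypD KO was compared with WT and CypD OE with Control to ask what less or more CypD does. No selection is described for WT in the sources used here. In CypD KO against WT, loss of CypD therefore cannot be told apart from selection and cloning. Resistant clones were selected for the CypD OE and Control lines too. In CypD OE against Control, added CypD therefore cannot be told apart from differences between clones. Control was also set against WT, but these groups differ in oxygen and in vector and selection, so the 2 cannot be told apart, and this comparison shares its libraries with the other two.

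Mammalian mtDNA is a small circular genome that is copied into long RNAs from both of its strands. The mitochondrial RNA polymerase starts near the control region, and the long RNAs are cut mainly at the tRNAs that lie between the other genes, which frees rRNAs, mRNAs and tRNAs. The mRNAs all encode subunits of the oxidative phosphorylation machinery, whose other subunits are made from nuclear genes and imported. Genes of the same strand are largely copied together, and their RNAs can still differ in level through processing and decay.

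In GRCm39 the molecule has 16299 bases, and each of the 37 genes is annotated as a single exon, with no introns. Of the protein genes, 12 lie on the plus strand and 1, *mt-Nd6*, on the minus strand. Both rRNA genes are on the plus strand, as are 14 of the tRNA genes, with 8 on the minus strand. The first stretch shown is the junction at which *mt-Rnr2* (chrM:1094-2675) ends and *mt-Nd1* (chrM:2751-3707) begins, with the whole tRNA gene *mt-Tl1* between them in capitals, since it is a place where the long RNA is cut. The next stretches show the bases, in capitals, that belong to 2 protein genes at once on a shared mRNA, 43 bases in *mt-Atp8* (chrM:7766-7969) and *mt-Atp6* (chrM:7927-8607) and 7 bases in *mt-Nd4l* (chrM:9877-10173) and *mt-Nd4* (chrM:10167-11544). All are plus strand of GRCm39, written 5′ to 3′.
Junction of mt-Rnr2, mt-Tl1 and mt-Nd1, chrM:2666-2760: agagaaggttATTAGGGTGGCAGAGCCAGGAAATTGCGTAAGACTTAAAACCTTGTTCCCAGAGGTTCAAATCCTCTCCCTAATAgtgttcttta
Overlap of mt-Atp8 and mt-Atp6, chrM:7917-7979: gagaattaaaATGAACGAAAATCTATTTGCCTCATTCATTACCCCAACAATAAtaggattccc
Overlap of mt-Nd4l and mt-Nd4, chrM:10157-10183: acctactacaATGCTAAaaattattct

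The nuclear genome holds copies of stretches of mtDNA, and 9 of them are rows of the table with a mean of at least 1 TPM. Of these, 7 lie side by side on chromosome 1, on its minus strand, between 24650616 and 24655278. *Gm10925* matches 678 bases of *mt-Atp6*, *Gm28661* matches 681 bases of *mt-Co2*, *Gm28437* matches 783 bases of *mt-Co3*, *Gm10222* matches 294 bases of *mt-Nd4l* and *Gm28439* matches the first 876 bases of *mt-Nd4*, each without a mismatch. *Gm28438* differs from *mt-Nd3* by a single base in 345, T3C, and *Gm29216* differs from the last 483 bases of *mt-Co1* by a single base, A1066T, with the mt- base first and positions counted from 1 at the first base of the mt- gene. These 2 pairs are shown around the base that differs, in capitals, because within the matching stretch no other base tells them apart.
mt-Nd3, chrM:9459-9491, plus strand: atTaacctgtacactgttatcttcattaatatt
Gm28438, chr1:24652168-24652200, minus strand: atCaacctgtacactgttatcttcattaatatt
mt-Co1, chrM:6390-6423, plus strand: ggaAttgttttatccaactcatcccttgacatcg
Gm29216, chr1:24655236-24655269, minus strand: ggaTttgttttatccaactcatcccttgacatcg

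Values are TPM, a gene's share of the transcripts of a library after correction for gene length. The authors estimated it with RSEM, which shares out a read among all genes that it matches. The 9 copy rows together held 39293 to 52481 TPM in a library, so each mt- gene was read both as deposited and with the copies added back in proportion to the bases they share. Adding them changed how well the 2 libraries of a group matched. The largest gap between replicates fell from 1.70 to 0.03 on the log2 scale for *mt-Nd3*, from 0.67 to 0.05 for *mt-Co3* and from 0.21 to 0.03 for *mt-Nd4l*, whereas for *mt-Nd4* it was 0.11 before and 0.13 after. The row of *Gm28438* held 6.26 to 28.4 times the TPM of *mt-Nd3*, and that of *Gm29216* only 0.001 to 0.00303 times the TPM of *mt-Co1*. Whether any of these reads came from the nuclear copies was not tested.

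All 22 tRNA genes were listed at 0 TPM in all 8 libraries, and nothing can be said of them. They are shorter than the sequenced fragments, which were estimated at 206 to 214 bases. *mt-Atp8*, at 204 bases, is no longer than such a fragment either, so its TPM, by far the highest of the class, cannot be set against those of longer genes. It was 38.1% to 43.8% of the summed TPM of the protein genes in WT, CypD KO and Control and up to 44.2% in CypD OE. A single fragment on 1000 usable bases was worth 0.082 to 0.0975 TPM, so *mt-Nd1* rested on 44846 to 90178 fragments in a library, *mt-Nd4l* on 1882 to 3194 and the *mt-Nd3* row as deposited on 113 to 643. Differences are given on the scale of log2(TPM + 1), with a standard error (SE) and an adjusted p from a limma fit over 13526 genes, and a gene was called higher or lower where the adjusted p was under 0.05.

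The level of *Ppif* was 50.7 and 50.0 TPM in WT against 10.4 and 12.1 TPM in CypD KO, a log2 difference of -2.07 (limma adjusted p = 3.81e-06). In Control it was 44.6 and 42.3 TPM, against 50.3 and 49.3 TPM in the CypD OE libraries, and this log2 difference of 0.19 did not pass the test (limma adjusted p = 0.0794), so the directions given for CypD OE rest on the label. All 7 melanocyte markers were present in every library, with a summed level of 12433 to 20984 TPM. The summed level of 5 leukocyte markers was at most 0.48 TPM. Of 4 endothelial and keratinocyte markers, *Cdh5*, *Krt5* and *Krt14* were at 0 and *Pecam1* stood at 0.03 to 1.18 TPM. The 5 fibroblast markers summed to 9.21 to 36.9 TPM. Of these, *Postn* was at 6.42 to 34.77 TPM, highest in CypD KO, and *Col1a2* at 1.09 to 11.36 TPM. *Pdgfra* was at 0.48 to 1.02 TPM, *Lum* at most at 0.08 TPM and *Dcn* at 0.

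As deposited, the 13 protein genes together made up 11.0% and 11.1% of all TPM in WT and 10.5% and 10.8% in CypD KO. They made up 9.89% and 9.41% in Control and 12.8% and 13.5% in CypD OE. With copies added the shares were 15.2% and 15.5% in WT and 14.8% and 15.1% in CypD KO. They were then 13.9% and 13.3% in Control and 17.9% and 18.6% in CypD OE. The CypD OE libraries were thus above, and the Control libraries below, all other libraries. As ratios of group means, the summed level as deposited was 1.36 for CypD OE over Control. It was 0.876 for Control over WT and 0.964 for CypD KO over WT. The last of these turned to 1.05 once the 3 shortest genes, *mt-Atp8*, *mt-Nd4l* and *mt-Nd3*, were left out, so the summed level gave no steady direction for CypD KO. In whole-cell RNA, fewer mitochondrial genomes per cell and less RNA per genome cannot be told apart.

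Complex I, the NADH dehydrogenase that feeds electrons into the respiratory chain, has 7 subunits in mtDNA. *mt-Nd1* was read at 8360 and 8632 TPM in WT, 7299 and 7506 TPM in CypD KO, 5815 and 5430 TPM in Control, and 9234 and 9886 TPM in CypD OE. *mt-Nd2* stood at 4333 and 4574 TPM in WT, 4590 and 4790 TPM in CypD KO, 3872 and 3538 TPM in Control, and 5362 and 5788 TPM in CypD OE. For both genes Control was lowest and CypD OE highest, with no overlap between groups. The order of the groups in between differed, since CypD KO lay below WT for *mt-Nd1* and above it for *mt-Nd2*.

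*mt-Nd3* (chrM:9459-9806) as deposited was read at 308 and 342 TPM in WT, 247 and 76.2 TPM in CypD KO, 158 and 214 TPM in Control, and 194 and 380 TPM in CypD OE, so that replicates were farther apart than most groups. With its copy added it stood at 2491 and 2465 TPM in WT, 2243 and 2223 TPM in CypD KO, 1697 and 1679 TPM in Control, and 2951 and 3021 TPM in CypD OE. The 4 groups then fell into the order of *mt-Nd1*, with replicates next to each other. *mt-Nd4l* with its copy ran from 6395 TPM in a Control library to 7953 TPM in a CypD OE library, and *mt-Nd4* with its copy from 5841 to 8066 TPM in the same groups. *mt-Nd5* (chrM:11742-13565) ranged from 3524 TPM in Control to 4775 TPM in CypD OE, and *mt-Nd6* (chrM:13552-14070, minus strand) from 3907 to 5164 TPM. In all 4 of these genes both CypD OE libraries exceeded both Control libraries.

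*mt-Cytb* (chrM:14145-15288) encodes cytochrome b, the only mtDNA subunit of complex III. Its level was 11543 and 12059 TPM in WT, 10725 and 11199 TPM in CypD KO, 8670 and 8109 TPM in Control, and 14414 and 15380 TPM in CypD OE. The 4 groups did not overlap and kept the order of *mt-Nd1*.

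The 3 genes of complex IV, cytochrome c oxidase, had another order. *mt-Co1* (chrM:5328-6872), the catalytic subunit with a haem and copper centre, stood at 10748 and 10934 TPM in WT, 12292 and 12533 TPM in CypD KO, 13474 and 13124 TPM in Control, and 11857 and 12345 TPM in CypD OE. Control was highest here and WT lowest, with CypD KO and CypD OE overlapping in between. *mt-Co2* (chrM:7013-7696), the subunit that takes electrons from cytochrome c, stood with its copies added at 14719 and 15393 TPM in WT, 18934 and 18943 TPM in CypD KO, 17471 and 16043 TPM in Control, and 19827 and 19423 TPM in CypD OE. *mt-Co3* (chrM:8607-9390), a core subunit without a redox centre, stood with its copy at 6492 and 6567 TPM in WT, 7677 and 7974 TPM in CypD KO, 7122 and 7012 TPM in Control, and 7700 and 7664 TPM in CypD OE. WT was the lowest group for each of the 3 genes. As deposited, *mt-Co3* ran from 857 to 1367 TPM within WT alone, a spread as wide as the differences between groups.

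ATP synthase, or complex V, has 2 subunits in mtDNA that lie on a shared mRNA. *mt-Atp8* was read at 48048 and 46905 TPM in WT, 41211 and 40996 TPM in CypD KO, 39842 and 39468 TPM in Control, and 56327 and 57827 TPM in CypD OE. *mt-Atp6* with its copy added stood at 22723 and 24099 TPM in WT, 20478 and 21319 TPM in CypD KO, 19830 and 18787 TPM in Control, and 26767 and 28311 TPM in CypD OE. Both fell in the order of *mt-Nd1*, with no overlap between groups. As deposited, *mt-Atp6* held only 3088 to 4307 TPM, and its copy *Gm10925* held 4.67 to 6.56 times as much.

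**Figure D1:**
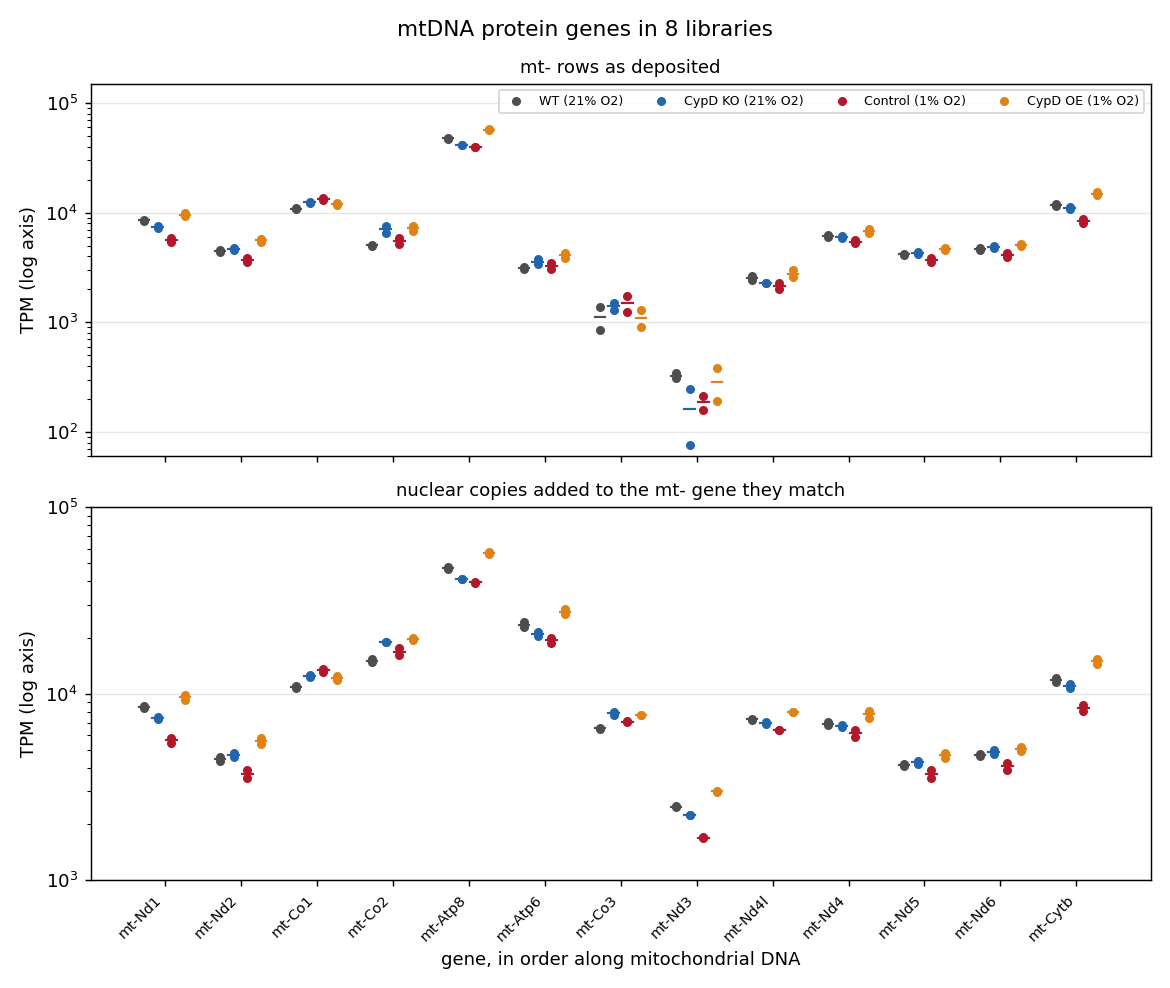
Level of each of the 13 mtDNA protein genes in TPM (logarithmic axis) in the 8 libraries, in gene order along mtDNA, as deposited (top) and with the nuclear copies added to the gene they match (bottom). Points are libraries and short lines are means of 2; the 2 libraries of a group sit far apart for *mt-Nd3* and *mt-Co3* in the top panel and close together in the bottom panel, where *mt-Nd3* is at 1679 to 3021 TPM.

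The comparison of CypD KO with WT gave small differences in both directions. As deposited, 2 of 13 protein genes were called higher and 2 lower, where 30.1% of all genes tested were called higher and 18.4% lower, so the share of members called was no larger than that of all genes. *mt-Co1* was higher by a log2 difference of 0.20 (SE 0.03, limma adjusted p = 0.00119) and *mt-Co2* by 0.48 (SE 0.09, limma adjusted p = 0.00531). *mt-Nd1* was lower at -0.20 (SE 0.04, limma adjusted p = 0.00985) and *mt-Atp8* at -0.21 (SE 0.02, limma adjusted p = 0.000337). *mt-Nd1* lost its call without WT replicate 2 (1 gene was then called lower) and without CypD KO replicate 1, where *mt-Nd3* was called lower instead. The groups did not overlap for 11 of the 13 genes, against 74% of all genes.

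With copies added, 3 genes were called higher and 5 lower, and all genes again stood at 30.1% and 18.4%. The 3 that were higher were those of complex IV, with log2 differences of 0.20 for *mt-Co1*, 0.33 for *mt-Co2* and 0.26 for *mt-Co3*. Those that were lower were *mt-Nd1*, *mt-Nd3* at -0.15, *mt-Nd4l* at -0.07, *mt-Atp8* and *mt-Atp6* at -0.16. The value of *mt-Atp6* as deposited was 0.18 and not called (limma adjusted p = 0.102), so its direction depended on the copy row. *mt-Nd2*, *mt-Nd5* and *mt-Nd6* stood at 0.07, 0.04 and 0.06, *mt-Nd4* at -0.04 and *mt-Cytb* at -0.11, none of them called. Each of the 4 fits that left out a WT or a CypD KO library called the same 3 complex IV genes higher, while 2 to 5 genes were called lower.

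The scale matters for differences of this size. Rescaling the libraries by median-of-ratios size factors moved every difference of CypD KO from WT by -0.11 on the log2 scale. On that scale, with copies added, *mt-Co2* at 0.22 and *mt-Co3* at 0.15 were still called higher, whereas *mt-Co1* at 0.08 was not (limma adjusted p = 0.0976). The genes called lower were then 6, *mt-Cytb* being added at -0.22, and of all genes 23.7% were called higher and 25.9% lower.

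The libraries labelled CypD OE differed from Control far more. As deposited, 10 of 13 protein genes were called higher and 1 lower, where 19% of all genes were called higher and 18.3% lower. The log2 difference was 0.83 for *mt-Cytb* (SE 0.05, limma adjusted p = 4.01e-05), 0.77 for *mt-Nd1* (SE 0.04, limma adjusted p = 4.55e-05), 0.59 for *mt-Nd2* and 0.53 for *mt-Atp8*. *mt-Co2*, *mt-Nd4l*, *mt-Nd4*, *mt-Nd5*, *mt-Nd6* and *mt-Atp6* were higher by 0.31 to 0.37. *mt-Co1* was the gene called lower, at -0.14 (SE 0.03, limma adjusted p = 0.00808). *mt-Co3* at -0.44 and *mt-Nd3* at 0.56 were not called, with an SE of 0.27 and 0.54. Without Control replicate 2, and likewise without CypD OE replicate 2, 7 genes were called higher, *mt-Co2*, *mt-Atp6* and *mt-Nd4l* having lost their calls. The groups did not overlap for 11 of the 13 genes, against 68.7% of all genes.

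With copies added, 12 genes were called higher and *mt-Co1* lower, where 19.1% of all genes were called higher and 18.4% lower. *mt-Nd3* then stood at 0.82 (SE 0.02, limma adjusted p = 1.33e-06), next to *mt-Cytb*, and *mt-Co3* at 0.12, having turned in direction. The 7 complex I genes had a median log2 difference of 0.34 and the 3 complex IV genes one of 0.12. Leaving out any Control or CypD OE library left 12 genes higher and 1 lower. *mt-Co1* was not lower on every scale: with TPM taken relative to the nuclear genes alone its difference was -0.05 and not called (limma adjusted p = 0.205). The other 12 genes stayed higher there.

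Control set against WT went the other way for most genes, and it shares Control with the comparison above and WT with that of CypD KO. As deposited, 1 of 13 protein genes was called higher and 7 lower, where 12.1% of all genes were called in each direction. *mt-Nd1* was lower at -0.60 (SE 0.04, limma adjusted p = 0.000311) and *mt-Cytb* at -0.49 (SE 0.05, limma adjusted p = 0.000729), and *mt-Nd2*, *mt-Atp8*, *mt-Nd4*, *mt-Nd5* and *mt-Nd6* at -0.17 to -0.27. *mt-Co1* was higher at 0.29 (SE 0.03, limma adjusted p = 0.000632). The count of genes called lower was 3 without WT replicate 2 or Control replicate 2 and 4 without WT replicate 1. The groups did not overlap for 11 of 13 genes, against 62% of all genes.

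With copies added, 3 genes were called higher and 9 lower, again against 12.1% in each direction. The 3 were *mt-Co1*, *mt-Co2* at 0.15 and *mt-Co3* at 0.11. Of these, *mt-Co2* and *mt-Co3* were no longer called without WT replicate 1 or without Control replicate 1, and *mt-Co2* was not called without WT replicate 2. Both calls were also lost on the other scales. With median-of-ratios size factors *mt-Co2* stood at 0.13 and *mt-Co3* at 0.09, and relative to the nuclear genes alone they stood at 0.12 and 0.08, so that *mt-Co1* was then the 1 gene called higher. *mt-Nd3* was lower at -0.55 and *mt-Nd4* at -0.18 was the gene not called (limma adjusted p = 0.0558).

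**Figure D2:**
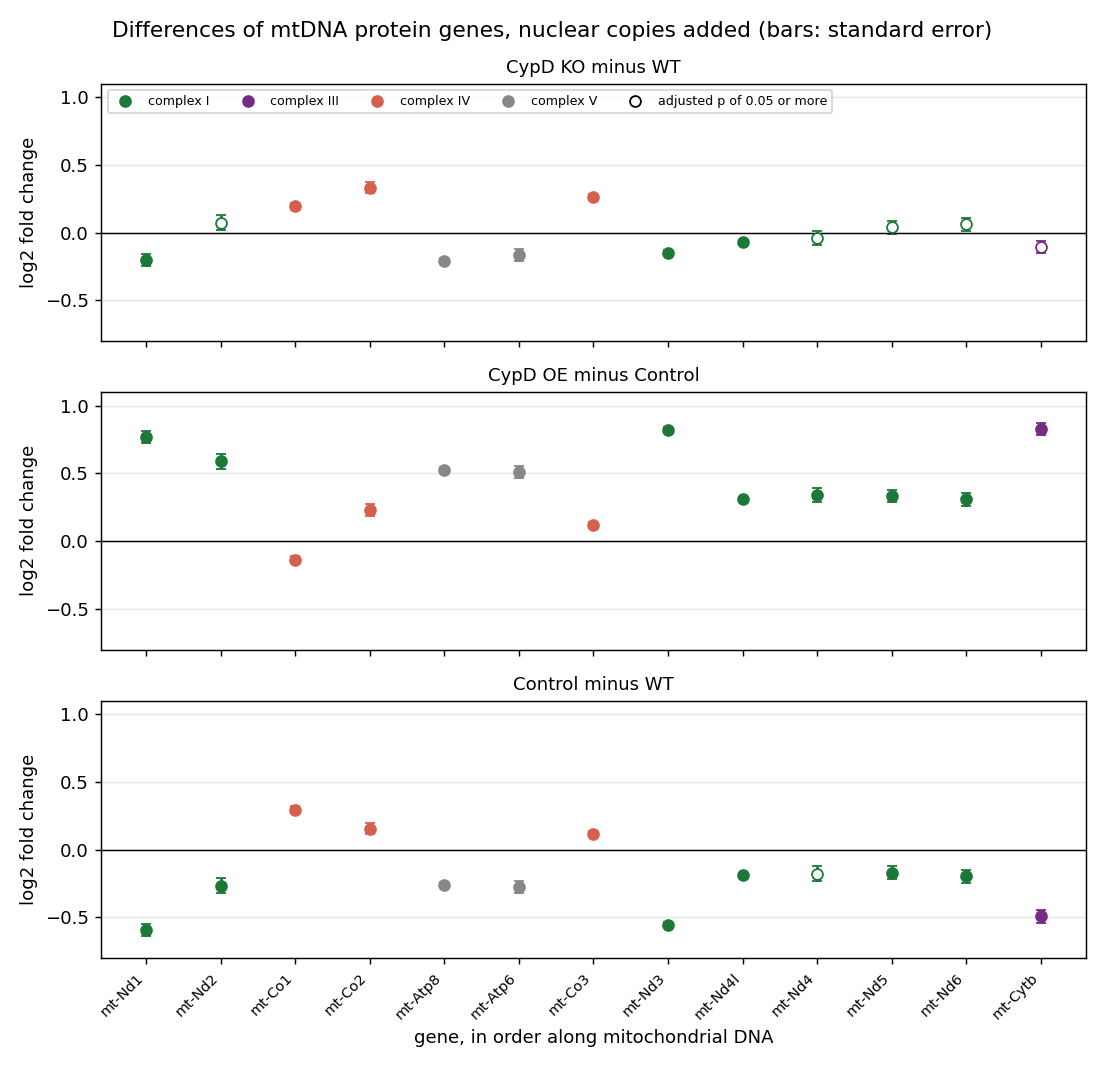
Log2 difference of each mtDNA protein gene, with nuclear copies added, in the 3 comparisons; bars are standard errors, colours are the respiratory complexes and open points have a limma adjusted p of 0.05 or more. The complex IV genes lie above 0 in CypD KO minus WT and in Control minus WT, and *mt-Co1* is the only point below 0 in CypD OE minus Control, at -0.14; the last 2 comparisons share the Control libraries.

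The difference between the effects was itself tested, as CypD KO minus WT less CypD OE minus Control, which compares a loss of CypD at 21% oxygen with the labelled overexpression at 1% oxygen. As deposited, 9 of 13 protein genes passed, where 46.2% of all genes did, and with copies added 12 of 13 passed, again against 46.2%. The log2 difference was -0.96 for *mt-Nd1*, -0.93 for *mt-Cytb* and -0.97 for *mt-Nd3* with its copy. It was positive for *mt-Co1* at 0.33 and, with its copy, for *mt-Co3* at 0.14, and *mt-Co2* at 0.10 did not pass. The value of *mt-Co3* depended on the scale, as it fell to 0.03 with size factors and to 0.05 relative to the nuclear genes alone and passed on neither, whereas *mt-Co1* passed on both.

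Ratios of mt- genes within a library do not depend on how the library was scaled. The pair of ratios below was chosen after the values had been seen and carries no test. *mt-Co1* over *mt-Nd1* was 1.29 and 1.27 in WT, 1.68 and 1.67 in CypD KO, 2.32 and 2.42 in Control, and 1.28 and 1.25 in CypD OE. WT and CypD OE, which differ in oxygen and in vector, overlapped, CypD KO stood above them and Control above CypD KO, with gaps between groups larger than those between replicates. *mt-Co1* over *mt-Cytb* was 0.931 and 0.907 in WT, 1.15 and 1.12 in CypD KO, 1.55 and 1.62 in Control, and 0.823 and 0.803 in CypD OE, in the same order but with CypD OE below WT.

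The same was seen against the mean log2 level of all 13 protein genes, with copies added. *mt-Co1* lay 0.35 and 0.34 above that mean in WT, 0.54 and 0.54 in CypD KO, 0.82 and 0.86 in Control, and 0.28 and 0.28 in CypD OE. *mt-Co2* and *mt-Co3* moved the same way, by 0.33 and 0.26 from WT to CypD KO, by 0.35 and 0.32 from WT to Control and by -0.20 and -0.31 from Control to CypD OE. Values taken against this mean cancel out over the 13 genes, so where some move up others must move down. The comparisons of WT with Control and of Control with CypD OE also share Control, which favours opposite signs in them. Within these limits, *mt-Nd1*, *mt-Nd3* and *mt-Cytb* moved the opposite way. They moved by -0.20, -0.15 and -0.11 from WT to CypD KO, by -0.40, -0.35 and -0.29 from WT to Control and by 0.34, 0.40 and 0.40 from Control to CypD OE. *mt-Atp8* and *mt-Atp6* had the same signs as these, at -0.21 and -0.17, -0.06 and -0.08, and 0.10 and 0.09. *mt-Nd2* moved by 0.07, -0.07 and 0.16. By contrast, *mt-Nd4l*, *mt-Nd4*, *mt-Nd5* and *mt-Nd6* moved by at most 0.12 in any of the 3 comparisons. The 13 genes therefore did not rise and fall as a block, and the largest gap between replicates on this scale was 0.09.

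Genes that share an mRNA gave a check on the readings. The log2 difference of *mt-Atp8* and that of *mt-Atp6* with its copy were -0.21 and -0.16 in CypD KO minus WT, 0.53 and 0.51 in CypD OE minus Control, and -0.26 and -0.28 in Control minus WT. For *mt-Nd4l* and *mt-Nd4* with copies they were -0.07 and -0.04, 0.31 and 0.34, and -0.19 and -0.18. Members of a shared mRNA thus stayed within 0.05 of each other once copies were added. As deposited, *mt-Atp8* and *mt-Atp6* were at -0.21 and 0.18 in CypD KO minus WT. *mt-Nd5* and *mt-Nd6* face each other on opposite strands, with ends that overlap. They share no mRNA and gave no such check. Their differences were 0.04 and 0.06, 0.33 and 0.31, and -0.17 and -0.20. Whether reads were counted by strand is not given in the sources used here, so the reads of *mt-Nd6* and those of the RNA opposite to it cannot be told apart.

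**Figure D3:**
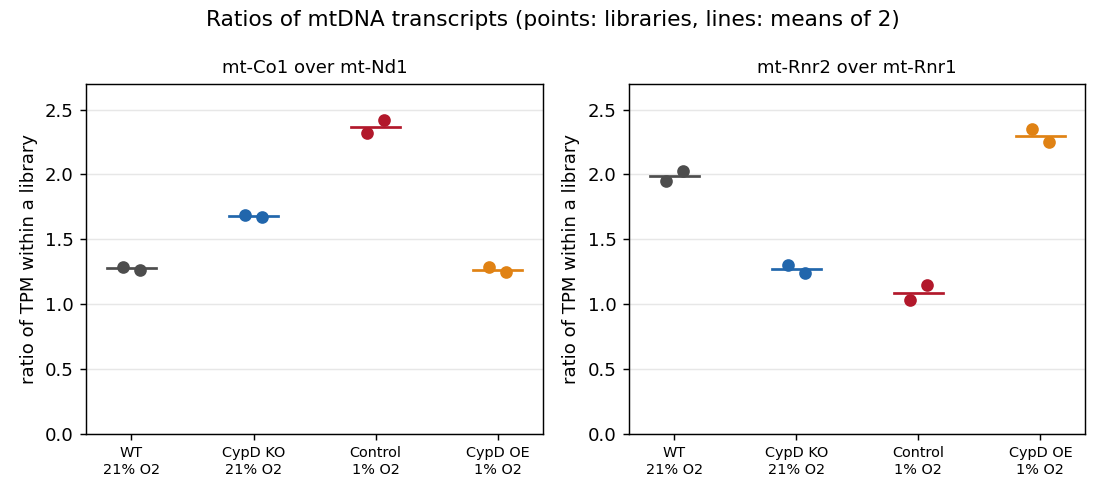
Ratio of TPM of *mt-Co1* over *mt-Nd1* (left) and of *mt-Rnr2* over *mt-Rnr1* (right) in the 8 libraries, by group with its oxygen level; points are libraries and lines are means of 2. On the left Control is highest at 2.32 and 2.42, and on the right it is lowest at 1.03 and 1.14.

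The rRNAs of the mitochondrial ribosome were read after rRNA had been removed from the libraries, so their TPM is what was left and not their level in the cells. *mt-Rnr1* (12S rRNA; chrM:70-1024) stood at 561 and 575 TPM in WT, 741 and 799 TPM in CypD KO, 639 and 421 TPM in Control, and 605 and 634 TPM in CypD OE. *mt-Rnr2* (16S rRNA) was read at 1094 and 1166 TPM in WT, 964 and 990 TPM in CypD KO, 660 and 481 TPM in Control, and 1421 and 1427 TPM in CypD OE. Control was lowest and CypD OE highest for *mt-Rnr2*, and the second Control library was lowest for both.

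*mt-Rnr2* was higher in CypD OE than in Control by a log2 difference of 1.34 (SE 0.13, limma adjusted p = 0.00037) and lower in Control than in WT at -1.002 (SE 0.13, limma adjusted p = 0.00246). The difference of CypD KO from WT, -0.21, was not called (limma adjusted p = 0.223). *mt-Rnr1* was not called in any comparison, with log2 differences of 0.44, 0.26 and -0.13 for CypD KO, CypD OE and Control (limma adjusted p = 0.0709, 0.281 and 0.615). With Control replicate 1 left out, it was called higher in CypD OE and lower in Control. The 2 rRNA genes have only the tRNA gene *mt-Tv* between them. *mt-Rnr2* over *mt-Rnr1* was 1.95 and 2.03 in WT and 1.30 and 1.24 in CypD KO. It was 1.03 and 1.14 in Control and 2.35 and 2.25 in CypD OE, with no overlap of groups, and this ratio carries no test. The row *Rn18s-rs5*, which resembles cytosolic rRNA, stood at 817 and 570 TPM in WT, 1330 and 1814 TPM in CypD KO, 3433 and 1251 TPM in Control, and 1404 and 1454 TPM in CypD OE, and its part in the rRNA results was not tested.

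The nuclear subunits that join these proteins in the complexes were counted in the fit of the values as deposited. The medians of mtDNA subunits set beside them come from the fit with copies added. Of 37 nuclear complex I subunits, 19 were called higher and 4 lower in CypD KO than in WT. Of all genes, 30.1% were called higher and 18.4% lower there. The median log2 difference was 0.17 for the nuclear subunits, against -0.04 for the 7 mtDNA subunits with copies added. In CypD OE against Control, 2 were called higher and 19 lower, with a median of -0.23 for the nuclear and 0.34 for the mtDNA subunits. Nuclear and mtDNA subunits of complex I thus lay on opposite sides of 0 in this comparison, in which 19% of all genes were called higher and 18.3% lower. TPM is a share, so a larger mtDNA share lowers the values of nuclear genes. With copies added and TPM taken relative to the nuclear genes alone, the median over all genes here was 0.08 in place of 0.002. The nuclear subunits of the complexes were not recounted on that scale. In Control against WT the nuclear subunits had 13 higher and 1 lower, with a median of 0.12, against 12.1% of all genes in each direction, and the mtDNA subunits a median of -0.20. The median over all genes tested was 0.09, 0.002 and 0.01 in these 3 comparisons.

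For complex IV the 2 sets were on the same side of 0 in CypD KO and in Control. Of 11 nuclear subunits, 10 were called higher and 1 lower in CypD KO than in WT, where 30.1% of all genes were higher and 18.4% lower, with a median of 0.34, beside 0.26 for the 3 mtDNA subunits. In Control against WT limma called 6 higher and 0 lower, also 0 at an unadjusted p under 0.05, with a median of 0.17, beside 0.15. In CypD OE against Control 2 were higher and 9 lower, with a median of -0.27, whereas of the mtDNA subunits *mt-Co1* was lower and *mt-Co2* and *mt-Co3* higher. Of 15 nuclear ATP synthase subunits, limma called 2 higher and 4 lower in CypD KO, 0 and 9 in CypD OE (0 and 10 at an unadjusted p under 0.05), and 3 and 2 in Control, while *mt-Atp8* and *mt-Atp6* were higher in CypD OE. The 9 nuclear subunits of complex III had 4 higher and 2 lower in CypD KO, 2 and 4 in CypD OE, and 3 and 3 in Control. The shares of all genes beside these counts are 19% higher and 18.3% lower for CypD OE and 12.1% in each direction for Control.

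**Figure D4:**
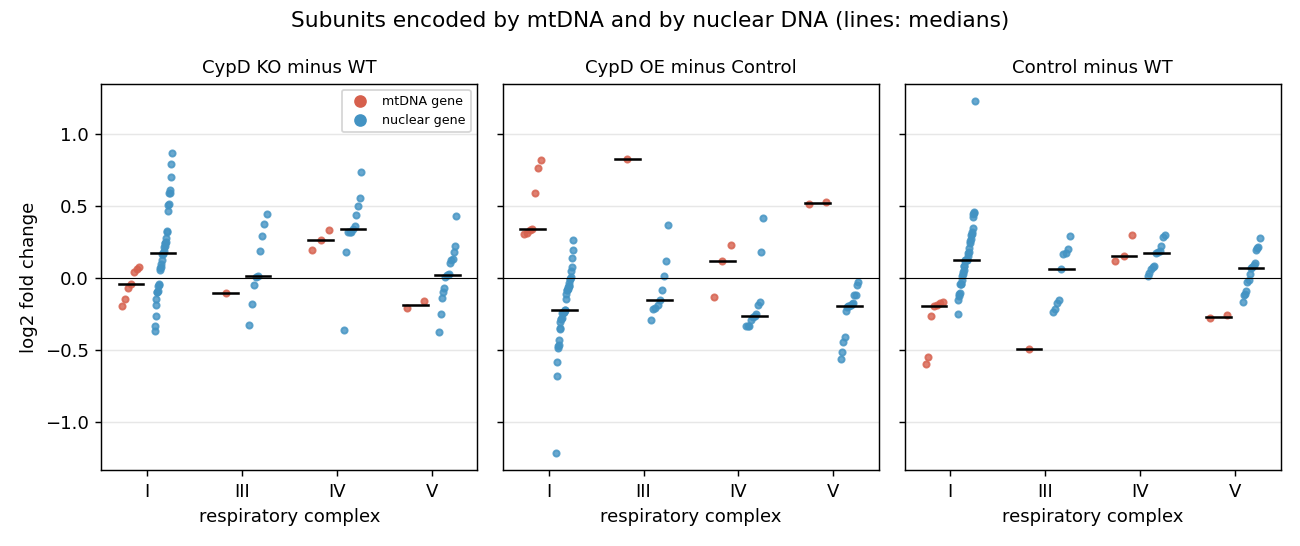
Log2 difference of the subunits of complexes I, III, IV and V in the 3 comparisons. Subunits encoded by mtDNA are red, with nuclear copies added, and those of nuclear genes are blue, as deposited. Each point is a gene and black lines are medians. In CypD OE minus Control the median of complex I is 0.34 for mtDNA genes and -0.23 for nuclear genes; Control minus WT shares libraries with the other comparisons.

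Lists of nuclear genes that act on mtDNA and its RNA were read the same way, against 30.1% of all genes called higher and 18.4% lower in CypD KO, 19% and 18.3% in CypD OE, and 12.1% in each direction in Control. A count near these shares says nothing particular of a list. Of 10 genes of mitochondrial transcription, limma called 0 higher and 3 lower in CypD KO (1 and 3 at an unadjusted p under 0.05), 2 and 1 in CypD OE, and 0 and 2 in Control (0 and 3). *Polrmt*, the mitochondrial RNA polymerase, was listed at 14.2 to 21.7 TPM and *Tfam*, which packages mtDNA and helps the polymerase to start, at 80.8 to 106 TPM, and neither was called in any comparison. *Tefm*, a factor for elongation, was higher in CypD OE at 0.27 (limma adjusted p = 0.0257) and lower in Control than in WT at -0.36 (limma adjusted p = 0.0139). *Tfb2m*, which opens the promoter with the polymerase, was lower in CypD KO at -0.73, from 47.3 and 35.8 TPM in WT to 23.6 and 25.3 TPM. *Tfb1m*, a methyltransferase of 12S rRNA, was lower in CypD OE at -0.56.

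Of 42 genes of mitochondrial RNA processing and stability, 1 was called higher and 12 lower in CypD KO, 16 higher and 5 lower in CypD OE, and 1 higher and 15 lower in Control against WT. The medians were -0.11, 0.19 and -0.24. All genes stood at 30.1% higher and 18.4% lower in CypD KO, 19% and 18.3% in CypD OE, and 12.1% each way in Control. *Lrpprc*, which binds and stabilises mitochondrial mRNAs, was read at 61.1 and 57.5 TPM in WT, 46.6 and 44.4 TPM in CypD KO, 46.5 and 44.5 TPM in Control, and 52.9 and 52.8 TPM in CypD OE. It was lower in CypD KO at -0.38 (limma adjusted p = 0.00112), higher in CypD OE at 0.21 (limma adjusted p = 0.0177) and lower in Control than in WT at -0.37 (limma adjusted p = 0.00321). Its partner *Slirp* was lower in CypD OE at -0.47 and not called in the other two comparisons.

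*Pnpt1*, the RNA-degrading enzyme of the mitochondrial degradosome, stood at 81.0 and 77.9 TPM in WT and 48.6 and 45.8 TPM in CypD KO, a log2 difference of -0.74. It was also lower in Control than in WT at -0.51 and higher in CypD OE than in Control at 0.20. *Trnt1*, which adds the CCA end to tRNAs, was higher in CypD OE at 0.69, and lower in Control than in WT at -0.47 and in CypD KO at -0.11. *Gtpbp3*, a tRNA-modifying enzyme, was higher in CypD OE at 1.03 and lower in Control at -0.50. *Elac2*, which cuts the 3′ end of tRNAs, was higher in CypD OE at 0.41 and lower in Control at -0.54. The genes that acted on tRNAs could not be set beside the tRNAs themselves.

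Of 19 genes of mtDNA maintenance, 6 were called higher and 3 lower in CypD KO, 3 and 4 in CypD OE, and 4 and 3 in Control. In CypD KO these counts are close to the 30.1% and 18.4% of all genes, and no more can be read from them. All genes stood at 19% higher and 18.3% lower in CypD OE and at 12.1% each way in Control. *Primpol*, a primase and polymerase, rose in CypD KO from 4.87 and 5.94 to 16.3 and 15.1 TPM, a log2 difference of 1.39, and was higher in Control than in WT at 0.48. *Dguok*, a kinase that supplies deoxynucleotides in mitochondria, was higher in CypD KO at 0.89 and in Control at 0.64 and lower in CypD OE at -0.43. *Slc25a36*, a pyrimidine nucleotide carrier, was higher in CypD KO at 0.71 and in Control at 0.81 and lower in CypD OE at -1.02, whereas the carrier *Slc25a33* was lower in CypD KO at -0.52 and in Control at -0.55.

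Of 10 transcription factors of nuclear genes for mitochondria, 1 was called higher and 5 lower in CypD KO, 3 and 2 in CypD OE, and 1 and 2 in Control, where all genes stood at 30.1% and 18.4%, 19% and 18.3%, and 12.1% each way. *Ppargc1a*, a coactivator of mitochondrial biogenesis, stood at 52.4 and 49.0 TPM in Control and 9.76 and 9.75 TPM in CypD OE, a log2 difference of -2.26, and was higher in Control than in WT at 0.71. *Myc* was lower in CypD KO at -1.08 and in Control at -0.39 and higher in CypD OE at 0.75. In CypD OE, where most mtDNA protein genes were higher, *Ppargc1a* was thus lower and *Myc* higher, and neither was tested for a part in it.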

How the data were processed

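RNA of 8 B16F10 libraries, 2 per group, was sequenced by the authors from rRNA-depleted total RNA in paired reads of 150 bases. Reads were trimmed with Cutadapt 3.4, aligned to Ensembl GRCm39 with STAR 2.7.8a and quantified with RSEM 1.3.1, and the deposited values are TPM for 55414 genes, of which 30708 were at 0 in every library. The annotation release and strand setting are not given in the sources used here. The authors' own tests used counts, which were not used here. No column of the table was without a sample (0 columns).

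Of all genes, the 13526 that reached 1 TPM in 2 or more libraries were compared on the scale log2(TPM + 1), using limma 3.58.1 and R 4.3.3 (eBayes with trend, 1 mean per group over all 8 libraries, two-sided, Benjamini-Hochberg). With 2 libraries against 2, the smallest p an exact permutation test allows is 0.333. Whether the 2 libraries of a group are separate cultures is not given, so p-values measure only the spread between them, which may be technical. Replicates were numbered in accession order and were not paired.

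Nuclear copies were found with blastn 2.17.0 (at least 90% identity over at least 100 bases), and rows with a mean of at least 1 TPM were added to the mt- gene after weighting by aligned length. Coordinates and sequences are from GENCODE vM39 and GRCm39. Fragment length and depth were estimated from the steps between low TPM values, of which 83.2% to 86.6% lay within 0.15 of whole fragments. Fragment length and step were chosen in each library to make this share largest. The 30% of evenly spread values at a fixed step is therefore not a like baseline. The test was tested on simulated data.

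Named were all mt- protein and rRNA genes, their copies, *Ppif*, *Polrmt*, *Tfam*, *Tefm*, *Lrpprc*, *Slirp*, and of the 4 regulator lists the 3 most raised and the 3 most lowered called genes of each comparison. Members and lists were chosen with earlier results of these data known. Alternatives were a pseudocount of 0.1, no filter, median-of-ratios size factors, totals without mt- genes, fits of 4 libraries, a replicate block, eBayes without trend, sums without the 3 shortest genes, copies added and each library left out; combinations of copies added with another choice were chosen after seeing the data.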

Additional observations from a re-analysis of the deposited data

Results flagged for a closer look

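For 10 of the 15 mt- genes tested the effect of CypD KO against WT differed from that of CypD OE against Control by the limma test of the difference itself, as deposited, where 46.2% of all genes passed this test. The log2 difference between the effects was -1.54 for *mt-Rnr2* (limma adjusted p = 0.000617), -0.96 for *mt-Nd1*, -0.93 for *mt-Cytb*, -0.73 for *mt-Atp8*, -0.52 for *mt-Nd2*, -0.52 for *mt-Nd4l*, -0.36 for *mt-Nd4*, -0.29 for *mt-Nd5* and -0.25 for *mt-Nd6*. It was 0.33 for *mt-Co1*, the gene of the 10 with the opposite sign. The 2 effects were measured at different oxygen levels and in differently selected cells, which cannot be told apart from the difference in CypD.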

How the results depend on the processing

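Counts of the 13 protein genes depended on the copies. With copies added, 5 were lower in CypD KO (2 as deposited), also with the nuclear total, 5 also without WT replicate 1 or CypD KO replicate 2, and 6 with size factors besides; 3 were higher in Control than in WT (1 as deposited), 3 without Control replicate 2, 2 without WT replicate 2, and 1 without WT replicate 1, without Control replicate 1, with size factors besides or with the nuclear total. Size factors alone left 1 gene higher in CypD KO. Without a filter on low TPM, limma called 0 genes lower in CypD KO (1 at an unadjusted p under 0.05), 0 lower in CypD OE and 2 lower in Control. The call of *mt-Co1* as lower in CypD OE was also lost, leaving 0 genes lower, with totals without mt- genes, with copies added and the nuclear total, and with eBayes without trend, but *mt-Co1* was lower at an unadjusted p under 0.05 in each of the settings as deposited. eBayes without trend left 3 lower in Control. Of the 10 genes called higher in CypD OE, limma called 8 without a filter on low TPM and 9 with eBayes without trend. At an unadjusted p under 0.05 the count was 10 in both settings. In fits of 4 libraries 1 rRNA gene was called higher and 1 lower in CypD KO.

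The sign of *mt-Atp6* in CypD KO minus WT turned to -0.16 with copies added, to -0.28 with size factors besides and to -0.17 with the nuclear total. In Control minus WT it turned to -0.28, -0.30 and -0.31. The sign of *mt-Co3* in CypD OE minus Control turned to 0.12, 0.12 and 0.20. The cause was not tested. The summed level of CypD KO over WT was 0.891 with size factors, 1.05 without the 3 shortest genes and 1.03 without them and with copies added, and that of Control over WT 0.912 and 0.914 in the last 2 settings.

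Leaving out a library gave 1 to 2 genes lower in CypD KO, 3 to 7 lower in Control, 1 to 2 rRNA genes higher in CypD OE and 1 to 2 lower in Control. Over all genes it gave 1715 to 1982 higher in CypD OE (2576 with every library), and 936 to 1089 higher and 996 to 1083 lower in Control than in WT (1634 and 1635), from fits with fewer libraries. A lone library was assumed to vary like those of other groups.

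With the accession-order number as a replicate block, 2 protein genes were higher and 2 lower in CypD KO. The counts were 10 and 1 in CypD OE, and 1 and 5 in Control. Same-numbered libraries of WT and CypD KO deviated together with a correlation of 0.108, and those of Control and CypD OE with -0.00175. The numbers only follow accession order, so these correlations cannot exclude that libraries of different groups were handled together. Depth limits *mt-Nd3* as deposited most, and no tRNA gene could be read.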

Other observations

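Position, length and base composition were set beside the log2 differences of the 13 protein genes with copies added, as a description over genes that share their libraries and largely a transcript. Spearman's rho with the order along mtDNA was -0.033 in CypD KO minus WT, 0.055 in CypD OE minus Control and 0.016 in Control minus WT. With gene length it was 0.38, -0.10 and 0.31, and with GC content, which ranged from 31.9% in *mt-Atp8* to 41.1% in *mt-Nd4l*, 0.38, -0.38 and 0.37. *mt-Cytb*, the last protein gene along mtDNA, and *mt-Nd1*, the first, had the same sign in each comparison. In CypD KO minus WT they stood at -0.106 (not called) and -0.199 (called lower). They stood at 0.828 and 0.766 in CypD OE minus Control, and at -0.493 and -0.596 in Control minus WT. *mt-Cytb* over *mt-Nd1* differed between groups, and this ratio carries no test. It was lowest in WT (1.381 and 1.397) and highest in CypD OE (1.561 and 1.556). CypD KO (1.469 and 1.492) and Control (1.491 and 1.493) overlapped in between.

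Of 4 nuclear noncoding RNAs tested, limma called 2 higher and 0 lower in CypD KO, 0 and 1 in CypD OE, and 1 and 0 in Control, with equal counts at an unadjusted p under 0.05. All genes stood at 30.1% and 18.4%, 19% and 18.3%, and 12.1% each way. The 2 with the calls, named after their values were seen, were *Malat1* and *Neat1*. The level of *Malat1* was 73.2 and 81.8 TPM in WT, 276 and 311 TPM in CypD KO, and 77.3 to 85.3 TPM in Control and CypD OE. That of *Neat1* was 81.0 and 77.9 TPM in WT, 168 and 169 TPM in CypD KO, 197 and 192 TPM in Control and 69.9 and 69.0 TPM in CypD OE. Their relation to the mt- genes was not tested.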
